A study of Homo sapiens with 6 samples.

Results

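The genes of sterol and fatty acid synthesis were followed in MM1.S cells, a single human multiple myeloma line, as a group of 32 genes named by role: the mevalonate pathway, the steps from squalene to cholesterol, sterol sensing and transport, and fatty acid synthesis and desaturation. All 32 were among the 11048 genes listed in the deposited expression values. The cells had been treated for 6 h with the DMSO vehicle, with 3 µM CCF642 or with 3 µM CCF642-34, and each group had 2 libraries of polyA RNA. CCF642 is an inhibitor of the disulfide isomerase PDIA1 and CCF642-34 is its analogue. The study asked how the cells respond to each inhibitor. The compounds were compared directly at a shared dose and time. The paper describes the analogue as more potent and more selective than its parent. An equal dose therefore need not be an equal inhibition of the target. The part of potency or selectivity in the direct differences was not tested. The labels do not say whether the 2 libraries of a group came from separate cultures, so p values measure only the spread between these libraries.

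Cholesterol and fatty acids are built from cytosolic acetyl-CoA, the former through mevalonate, squalene and lanosterol. Most of the enzymes are transcribed under the sterol regulatory element binding proteins (SREBPs), which stay in the endoplasmic reticulum (ER) membrane with their escort SCAP while INSIG proteins hold them there, and which move to the Golgi and are cleaved when ER sterol is low. Plasma cells have an extensive ER membrane and therefore a large need for these lipids.

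Values are deposited CPM, the reads counted on a gene relative to the total of its library. Fold changes, standard errors (SE) and 95% confidence intervals come from limma fitted to all listed genes on log2(CPM + 1), after scaling with trimmed means (TMM), and understate the changes of genes with low CPM. Genes were called at a Benjamini-Hochberg adjusted p under 0.05 over all 11048 genes. The libraries held 20567313 to 28459677 reads, and all 8 plasma cell markers examined were listed, with a summed level of 4916 to 5005 CPM with DMSO, 4392 to 4428 with CCF642 and 4722 to 4791 with CCF642-34. Single markers changed more than the sum: with CCF642 and CCF642-34 the log2 fold changes were −1.67 and −1.12 for SDC1, −1.06 and −0.81 for TNFRSF17, and 0.90 and 1.11 for IRF4. None of the 3 B cell and 3 myeloid markers was listed, and of 3 T cell markers only CD3E was, at 2.09 to 3.19 CPM. Of 4 stromal or epithelial markers 3 were listed, and their sum was 3.92 to 4.09 CPM with DMSO, 10.5 to 12.0 with CCF642 and 4.81 to 5.22 with CCF642-34. COL1A1 was at 8.99 and 10.5 CPM with CCF642 and at 2.74 and 3.53 CPM with CCF642-34. Its log2 fold changes against DMSO were 2.33 and 0.90. KRT8 went the other way (−1.01 and −0.85), from 1.96 and 1.45 CPM with DMSO to 0.34 and 0.22 CPM with CCF642. The log2 fold changes of EPCAM were 0.20 and 0.32. The part of these markers in the results was not tested. In bulk RNA, fewer cells of a kind and less RNA per cell cannot be told apart.

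With CCF642-34 most of the lipid synthesis genes rose, whereas with CCF642 they went in both directions. Compared to vehicle control, 21 of the 32 genes were higher and 4 lower with CCF642-34, while 29.7% of all listed genes were called higher and 27.9% lower. With CCF642, 14 were higher and 8 lower, while 31.8% of all listed genes were called higher and 31.3% lower. The median log2 fold change of the 32 genes was 0.27 with CCF642-34 and 0.061 with CCF642, and over all listed genes it was 0.0067 and −0.0066. Both comparisons use the same DMSO libraries. Without TMM scaling the median of all genes moved to −0.13 with CCF642. Among the 32 genes 10 were then called higher and 10 lower with CCF642, with a median of −0.058, and 17 and 5 with CCF642-34. The shares of all listed genes moved too, to 22.9% higher and 42.9% lower with CCF642, and 22.6% and 36.0% with CCF642-34.

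Compared directly at the same dose and time, 14 of the 32 genes were higher with CCF642-34 than with CCF642 and 1 was lower, while 15.9% of all listed genes were called higher and 17.4% lower. The median direct difference was 0.17 on the log2 scale for the 32 genes and 0.0093 for all listed genes. By role, 3 of 6 mevalonate pathway genes were higher with CCF642-34, 5 of 11 from squalene to cholesterol, 1 of 5 of sterol sensing and transport and 5 of 10 of fatty acid synthesis, and the gene that was lower was also of the last group. Most of the changes were small. Only HMGCS1 with CCF642-34 passed the 2-fold criterion, with an unadjusted p under 0.05, which 3.87% of all listed genes met. With CCF642 0 of the 32 genes met it, against 6.49% of all listed genes, and in the direct comparison 0 did, against 0.308%.

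**Figure D1:**
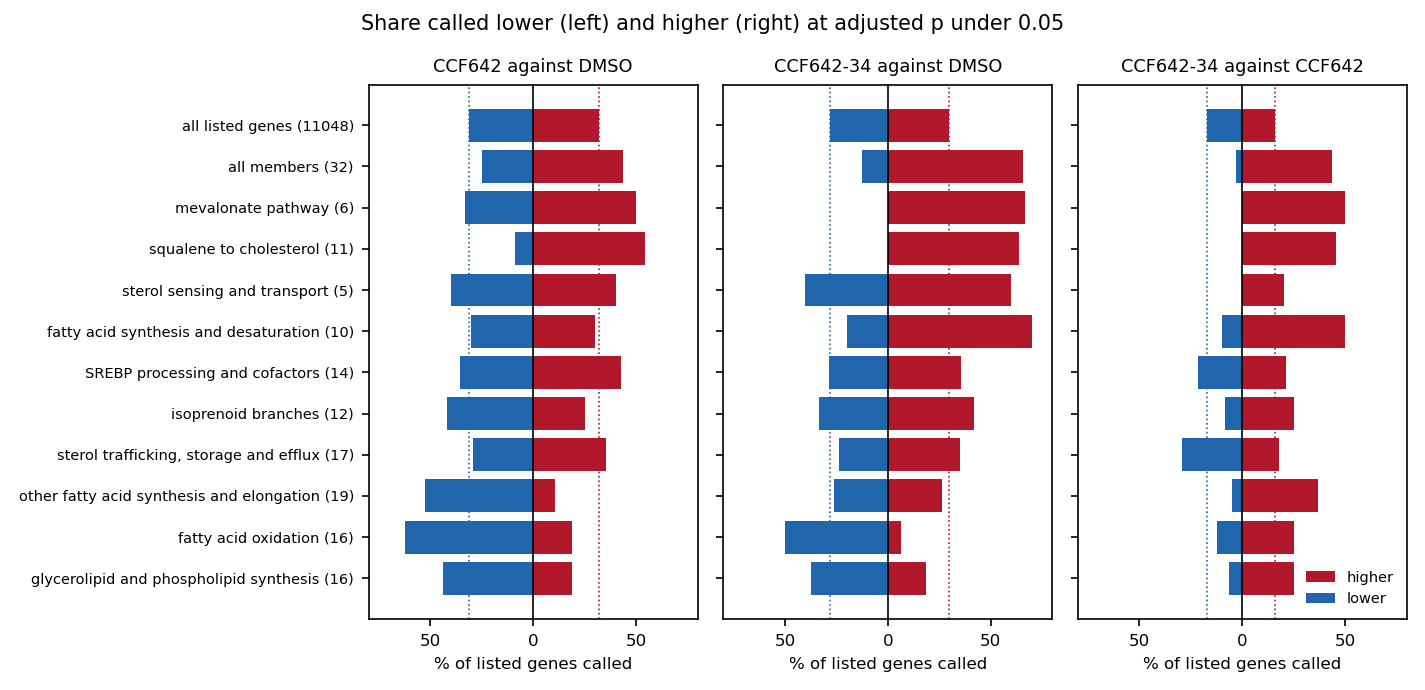
Percentage of the listed genes called lower (blue, to the left of 0) and higher (red, to the right) in each of the 3 comparisons, for all listed genes, the 32 lipid synthesis genes, their 4 role groups and 6 related lists, with the number of genes in brackets and dotted lines at the shares for all listed genes. In the direct comparison 14 of the 32 genes lie on the red side and 1 on the blue side, and the mevalonate and squalene to cholesterol groups have no blue bar with CCF642-34 against DMSO.

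The promoters of these genes were examined for short motifs, because most of them are known targets of SREBPs, which act together with the CCAAT-binding factor NF-Y. RefSeq promoters (GRCh38.p14, 250 bases before to 50 after the start) were matched by symbol for 29 of the 32 genes, all but FASN, FDFT1 and SQLE, and for 8871 listed genes. The stretches below, which end before the outermost annotated transcript start, are those of HMGCS1, the gene that rose most, of SCD, MSMO1 and INSIG1, which differed most between the compounds, and of SREBF2, the only one with a sterol regulatory element written as TCACNCCAC. They are written 5′ to 3′ on the strand of the gene, with CCAAT, its reverse complement and the sterol regulatory element in capitals.
HMGCS1 (chr5:43313513-43313662, minus strand): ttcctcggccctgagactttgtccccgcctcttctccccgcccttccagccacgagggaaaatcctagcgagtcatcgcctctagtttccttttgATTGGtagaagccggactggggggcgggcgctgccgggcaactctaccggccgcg
MSMO1 (chr4:165327419-165327622, plus strand): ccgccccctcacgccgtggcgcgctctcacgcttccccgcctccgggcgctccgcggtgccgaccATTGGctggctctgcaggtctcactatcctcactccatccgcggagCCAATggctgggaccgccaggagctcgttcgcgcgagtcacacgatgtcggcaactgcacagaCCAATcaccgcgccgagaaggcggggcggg
INSIG1 (chr7:155297628-155297775, plus strand): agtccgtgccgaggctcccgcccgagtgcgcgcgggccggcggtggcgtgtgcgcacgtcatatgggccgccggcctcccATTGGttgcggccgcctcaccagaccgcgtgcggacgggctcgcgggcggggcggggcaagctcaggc
SREBF2 (chr22:41832855-41833078, plus strand): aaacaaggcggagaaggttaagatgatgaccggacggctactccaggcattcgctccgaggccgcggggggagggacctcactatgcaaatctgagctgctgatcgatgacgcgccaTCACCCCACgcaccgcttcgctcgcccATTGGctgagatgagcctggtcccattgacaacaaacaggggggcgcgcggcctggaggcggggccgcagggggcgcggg
SCD (chr10:100346983-100347123, plus strand): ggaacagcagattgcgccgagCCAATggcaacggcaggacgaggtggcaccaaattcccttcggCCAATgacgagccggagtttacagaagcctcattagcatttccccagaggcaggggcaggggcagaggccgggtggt

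On either strand, CCAAT was found in promoters of 22 of the 29 genes (75.9%) and of 43.9% of the listed genes. A single promoter held at least 2 of them in 15 of the 29 genes (51.7%) and in 16.4% of the listed genes. By role, this was so for 5 of 6 mevalonate pathway genes, 5 of 9 genes from squalene to cholesterol, 1 of 5 genes of sterol sensing and transport and 4 of 9 fatty acid genes. MVK and NSDHL had 5 matches each. MSMO1 had 4, of which 3 are in the stretch shown, and HMGCS1 had 2, of which 1 is shown. Overlapping matches on opposite strands were counted separately. This was so at 113 and 110 bases before the start of NSDHL, and at 132 and 129 bases in IDI1. The 7 genes without a CCAAT match were PMVK, CYP51A1, SREBF1, SCAP, ELOVL6, FADS1 and LPIN1.

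The sterol regulatory element TCACNCCAC was found in SREBF2 alone, 133 bases before the start, and in 1.52% of listed genes. Its core CACCCCAC, which lies inside it when N is C, was also found in SREBF2 alone and in 3.67% of listed genes. The E-box CACGTG was found in 5 of the 29 genes (17.2%) and in 12.9% of listed genes. The amino acid response element core TGATGNAA and the ER stress response element, which itself contains CCAAT, were found in 0 of the 29, and in 2.73% and 0.180% of listed genes. These matches describe letters in a window and are not binding sites, and the lack of a match says nothing of a factor.

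Among the 6 enzymes of the mevalonate pathway, 3 were called higher and 2 lower with CCF642, and the median of their log2 fold changes was 0.23. With CCF642-34, 4 were higher and 0 lower, with a median of 0.36. Over all listed genes 31.8% were called higher and 31.3% lower with CCF642, and 29.7% and 27.9% with CCF642-34. HMGCS1, which makes HMG-CoA at the entry of the pathway, was at 62.2 and 65.6 CPM with DMSO, 115 and 118 CPM with CCF642, and 145 and 152 CPM with CCF642-34. The 3 groups did not overlap, and both compounds raised it. It rose 1.99-fold with CCF642 (log2 fold change 0.99, SE 0.054, limma adjusted p = 2.14e-21) and 2.44-fold with CCF642-34 (1.29, SE 0.054, limma adjusted p = 1.29e-25). The direct difference was 0.30 (SE 0.054, limma adjusted p = 2.36e-05).

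The steps after HMG-CoA changed less. MVD, the decarboxylase that makes isopentenyl diphosphate, was at 16.8 CPM in both DMSO libraries, 22.1 and 20.8 CPM with CCF642, and 24.4 and 22.0 CPM with CCF642-34, so that it was higher with each compound (log2 fold changes 0.46 and 0.53). IDI1, which isomerises isopentenyl diphosphate, rose by 0.22 and 0.35, the former not called without TMM scaling (0.086, limma adjusted p = 0.182). MVK, the kinase of mevalonate, rose with CCF642-34 (0.38) and was at 12.4 and 16.3 CPM with CCF642, on both sides of the DMSO libraries at 13.3 and 12.8 CPM. Its CCF642-34 call was lost without CCF642-34 replicate 2 (0.32, limma adjusted p = 0.0856), and it was called with CCF642 without CCF642 replicate 1 (0.43, limma adjusted p = 0.00219). MVK shares 306 exon bases with MMAB and IDI1 shares 643 with IDI2-AS1, each on the opposite strand, so reads of these pairs may not be fully separated. The same holds for HMGCS1 and FDPS, which share 703 and 693 exon bases with antisense genes that were not listed.

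PMVK, which adds the next phosphate, and FDPS, which makes farnesyl diphosphate, were a little lower with CCF642. FDPS was at 218 and 219 CPM with DMSO, 178 and 175 CPM with CCF642, and 214 and 199 CPM with CCF642-34. It fell by 0.17 on the log2 scale with CCF642 (limma adjusted p = 0.00137), and with CCF642-34 its log2 fold change was 0.0082. PMVK fell by 0.19 with CCF642 (limma adjusted p = 0.0149), a call lost without DMSO replicate 2 (−0.16, limma adjusted p = 0.137) or CCF642 replicate 2 (−0.15, limma adjusted p = 0.0838). Both were higher with CCF642-34 than with CCF642, by 0.18 each, but these calls were lost without CCF642-34 replicate 1, where the differences were 0.12 for FDPS and 0.084 for PMVK (limma adjusted p = 0.109 and 0.51). The PMVK call was also lost without CCF642 replicate 2 (0.14, limma adjusted p = 0.166) and without DMSO replicate 1 or 2 (0.18 in each, limma adjusted p = 0.0526 and 0.0535). With DESeq2's Wald test PMVK was called neither with CCF642 (−0.19, DESeq2 adjusted p = 0.0522) nor directly (0.18, DESeq2 adjusted p = 0.118). Without TMM scaling the log2 fold changes with CCF642 were −0.32 for PMVK and −0.30 for FDPS. FDPS has 8 annotated pseudogenes, and how shared reads were assigned is not given in the sources used here.

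From squalene to cholesterol, 6 of the 11 enzymes were called higher and 1 lower with CCF642, against 7 higher and 0 lower with CCF642-34. The medians were 0.23 and 0.42. Of all listed genes, 31.8% were called higher and 31.3% lower with CCF642, and 29.7% and 27.9% with CCF642-34. FDFT1, squalene synthase, which commits farnesyl diphosphate to sterols, was at 108 and 110 CPM with DMSO, 132 and 144 CPM with CCF642, and 191 and 200 CPM with CCF642-34. The groups did not overlap and lay in this order. It rose 1.39-fold with CCF642 (0.47, SE 0.050, limma adjusted p = 2.57e-11) and 1.90-fold with CCF642-34 (0.93, SE 0.050, limma adjusted p = 4.15e-21). Directly, the compounds differed by 0.46 (limma adjusted p = 5.3e-10).

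CYP51A1, the demethylase of lanosterol, behaved in the same order. It was at 120 and 121 CPM with DMSO, 143 and 137 CPM with CCF642, and 186 and 192 CPM with CCF642-34. It rose by 0.35 with CCF642 (SE 0.048, limma adjusted p = 1.63e-08, but 0.22 without TMM scaling) and by 0.73 with CCF642-34 (SE 0.048, limma adjusted p = 4.29e-18), and the direct difference was 0.38 (limma adjusted p = 1.37e-08). CYP51A1 shares 2844 exon bases with a second annotated gene on the same strand and has 3 pseudogenes, so the assignment of its reads is uncertain.

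MSMO1 is an oxygenase that starts a later sterol demethylation. It was at 43.3 and 46.8 CPM with DMSO, 45.8 and 51.2 CPM with CCF642, and 83.0 and 81.9 CPM with CCF642-34. The CCF642-34 libraries stood apart, while the deposited values of the other groups overlapped. With CCF642-34 it rose 1.93-fold (0.95, SE 0.068, limma adjusted p = 9.33e-17), and it was 1.64-fold higher than with CCF642 (0.71, SE 0.068, limma adjusted p = 6.67e-12). The smaller rise with CCF642 (0.23, limma adjusted p = 0.00256) was lost without TMM scaling (0.10, limma adjusted p = 0.182), without DMSO replicate 1 (0.18) and without CCF642 replicate 2 (0.15), with a limma adjusted p of 0.0753 in each of the last 2 fits.

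HSD17B7, a ketosterol reductase of the same demethylation, was at 21.1 and 22.1 CPM with DMSO, 32.2 and 34.7 CPM with CCF642, and 30.0 and 30.1 CPM with CCF642-34. It was the largest rise from squalene to cholesterol with CCF642 (0.73, SE 0.086, limma adjusted p = 2.77e-10), and it also rose with CCF642-34 (0.54, SE 0.086, limma adjusted p = 4.33e-07). The direct difference was −0.19 (95% confidence interval −0.36 to −0.018, limma adjusted p = 0.0812), and without CCF642 replicate 1 it was −0.25 (limma adjusted p = 0.0471). HSD17B7 has 2 pseudogenes.

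DHCR7 and EBP, late enzymes of the pathway, differed between the compounds. DHCR7, the reductase that forms cholesterol, was at 125 and 122 CPM with DMSO, 106 and 109 CPM with CCF642, and 161 and 151 CPM with CCF642-34. It rose with CCF642-34 (0.42, SE 0.051, limma adjusted p = 8.44e-10), was not called with CCF642 (−0.070, limma adjusted p = 0.236), and was higher with CCF642-34 than with CCF642 by 0.49 (limma adjusted p = 8.04e-11). Without TMM scaling it was called lower with CCF642 (−0.20, limma adjusted p = 0.000543).

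EBP, a sterol isomerase, was at 99.0 and 96.7 CPM with DMSO, 71.3 and 64.6 CPM with CCF642, and 89.3 and 83.2 CPM with CCF642-34. It fell by 0.39 on the log2 scale with CCF642 (limma adjusted p = 1.66e-07), and the compounds differed by 0.30 (limma adjusted p = 9.42e-05). It was not called with CCF642-34 against DMSO (−0.092), although without TMM scaling it was (−0.18, limma adjusted p = 0.00814).

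The remaining sterol enzymes did not pass the test between the compounds. SC5D, the sterol desaturase, rose by 0.49 with CCF642 and 0.44 with CCF642-34, and its direct difference was −0.057 (95% confidence interval −0.24 to 0.12). SQLE, squalene epoxidase, rose by 0.26 and 0.31, but its CCF642 call was lost without DMSO replicate 1 (0.25, limma adjusted p = 0.0507), without CCF642 replicate 2 (0.16, limma adjusted p = 0.143) and without TMM scaling (0.13, limma adjusted p = 0.175). LSS, lanosterol synthase, lay between 226 and 254 CPM in all libraries, TM7SF2, a sterol reductase, between 8.92 and 11.1 CPM, and NSDHL, a sterol dehydrogenase, between 17.9 and 27.2 CPM, and none of the 3 was called in any comparison with all libraries and TMM scaling. Without the scaling, LSS was called lower with CCF642 (−0.16, limma adjusted p = 0.000904). NSDHL was called higher with CCF642-34 than with CCF642 without CCF642 replicate 1 (0.40, limma adjusted p = 0.00221), and higher than DMSO without CCF642-34 replicate 2 (0.32, limma adjusted p = 0.0481).

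Summed over the 17 enzymes of the mevalonate pathway and of the steps to cholesterol, deposited levels were 1299 and 1307 CPM with DMSO, 1308 and 1312 CPM with CCF642, and 1634 and 1611 CPM with CCF642-34. After TMM scaling the sums were 1232 and 1242 with DMSO, 1359 and 1371 with CCF642, and 1655 and 1624 with CCF642-34. The sums with CCF642-34 lay above all others on both scales, and those with CCF642 lay above those with DMSO by little as deposited and by more after scaling. By gene, 9 of the 17 were higher and 3 lower with CCF642, and 11 higher and 0 lower with CCF642-34. In the direct comparison 8 were higher and 0 lower. In the same order, 31.8%, 29.7% and 15.9% of all listed genes were called higher, and 31.3%, 27.9% and 17.4% lower.

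**Figure D2:**
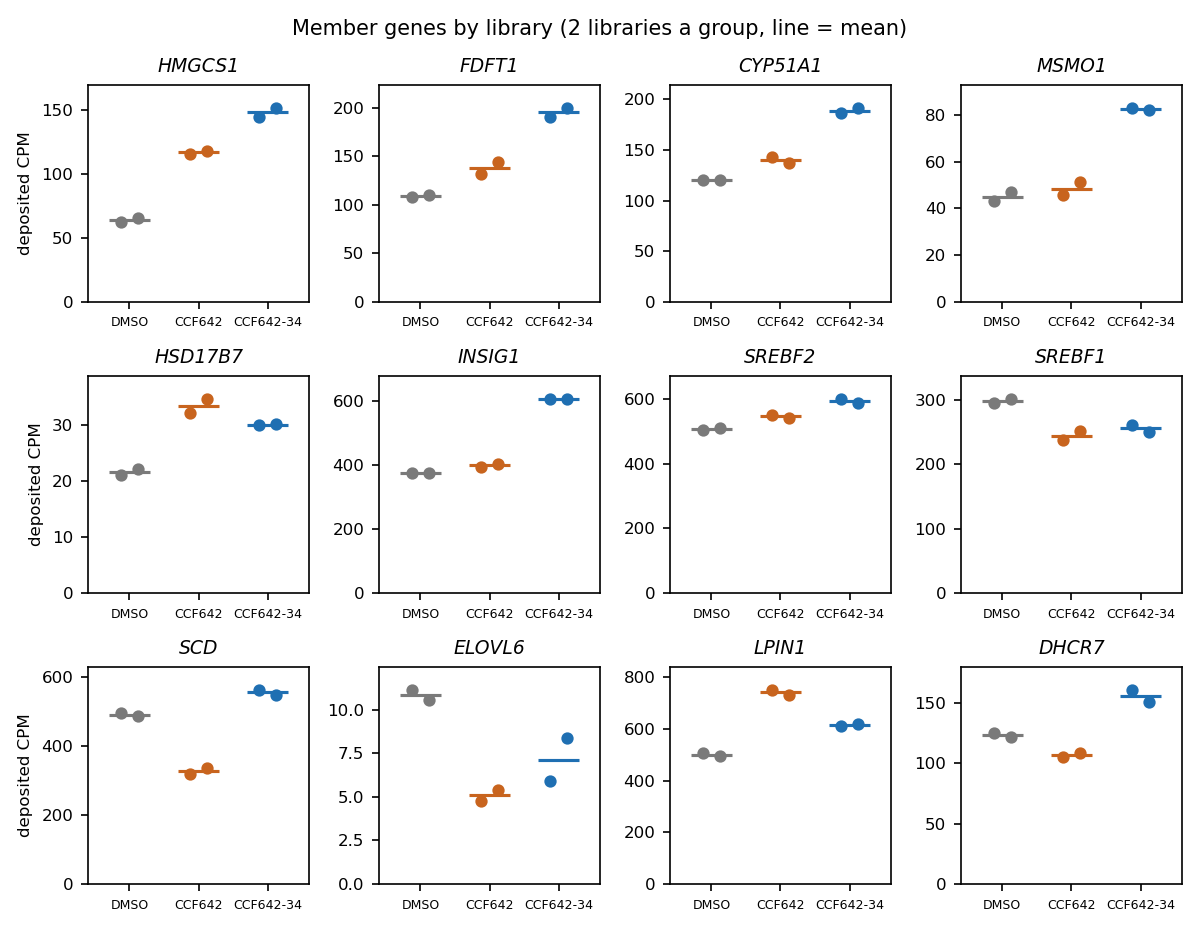
Deposited CPM (vertical axes, from 0) of 12 genes in each library, with 2 points per group for DMSO, CCF642 and CCF642-34 and a line at the mean. HMGCS1, FDFT1 and CYP51A1 lie higher in each group from left to right, MSMO1 and INSIG1 stand apart mainly with CCF642-34, and SCD is lowest with CCF642 at 319 and 337 CPM and highest with CCF642-34 at 563 and 549 CPM.

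Of the 5 genes of sterol sensing and transport, 2 were called higher and 2 lower with CCF642, beside 31.8% and 31.3% of all listed genes. With CCF642-34, 3 were higher and 2 lower, beside 29.7% and 27.9% of all listed genes. The medians were 0.0080 (−0.12 without TMM scaling) with CCF642 and 0.20 with CCF642-34. Of the 5 genes INSIG1 changed most with CCF642-34 (0.78). With CCF642 and TMM scaling SREBF2 did (0.24, against 0.22 for INSIG1).

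INSIG1, which retains SREBPs in the ER and is itself transcribed under them, was at 375 and 377 CPM with DMSO, 396 and 403 CPM with CCF642, and 606 and 608 CPM with CCF642-34. Libraries of a group lay close together and the groups did not overlap. It rose 1.17-fold with CCF642 (0.22, SE 0.038, limma adjusted p = 2.32e-06, but 0.088 and limma adjusted p = 0.0389 without TMM scaling) and 1.72-fold with CCF642-34 (0.78, SE 0.038, limma adjusted p = 8.95e-23). Directly, it was 1.47-fold higher with CCF642-34 (0.56, SE 0.038, limma adjusted p = 1.57e-16).

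The genes of the SREBPs themselves moved in opposite directions, by small amounts. SREBF2, which encodes the form that mainly serves sterol synthesis, was at 506 and 510 CPM with DMSO, 551 and 542 CPM with CCF642, and 601 and 589 CPM with CCF642-34. It rose by 0.24 with CCF642 (SE 0.037, limma adjusted p = 3.12e-07, but 0.11 and limma adjusted p = 0.0114 without TMM scaling) and 0.32 with CCF642-34 (SE 0.037, limma adjusted p = 4.92e-10). The direct difference of 0.079 was not called (95% confidence interval 0.0034 to 0.15, limma adjusted p = 0.101), although without TMM scaling it was (0.12, limma adjusted p = 0.00747). SREBF1, which encodes the forms that favour fatty acid synthesis, was at 296 and 302 CPM with DMSO, 237 and 251 CPM with CCF642, and 261 and 251 CPM with CCF642-34.

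SREBF1 was lower with both compounds, and the compounds overlapped. It fell by 0.16 on the log2 scale with CCF642 (SE 0.044, limma adjusted p = 0.0018) and by 0.13 with CCF642-34 (SE 0.044, limma adjusted p = 0.00839). The latter call was lost without DMSO replicate 2 (−0.12, limma adjusted p = 0.104) or CCF642-34 replicate 2 (−0.099, limma adjusted p = 0.125). Without TMM scaling the log2 fold changes were −0.29 and −0.22. SREBF1 shares 556 exon bases with RAI1 on the opposite strand, and whether reads were counted by strand is not given in the sources used here.

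SCAP and STARD4 changed little. SCAP, the SREBP escort, was at 125 and 123 CPM with DMSO and between 102 and 105 CPM with either compound, and fell by 0.13 with CCF642 and 0.17 with CCF642-34 (−0.26 with each without TMM scaling). The CCF642 call was lost without DMSO replicate 1 (−0.12), DMSO replicate 2 (−0.14) or CCF642 replicate 1 (−0.11), with limma adjusted p of 0.158, 0.0887 and 0.0958, and the CCF642-34 call without DMSO replicate 1 (−0.16, limma adjusted p = 0.0652). STARD4, a sterol carrier, was called with CCF642-34 against DMSO (0.20, limma adjusted p = 0.0277), but not without TMM scaling (0.12, limma adjusted p = 0.215), with DESeq2 (0.20, DESeq2 adjusted p = 0.071) or with the gene-wise linear model (adjusted p = 0.0575). It was also not called without DMSO replicate 1 (0.23), DMSO replicate 2 (0.17) or CCF642-34 replicate 1 (0.16), with limma adjusted p of 0.0609, 0.18 and 0.195. Its direct difference of 0.19 (limma adjusted p = 0.0552) was called by edgeR (0.20, edgeR adjusted p = 0.0496), among genes with a mean CPM of at least 5 (limma adjusted p = 0.0488) and without TMM scaling (0.24, limma adjusted p = 0.0175).

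**Figure D3:**
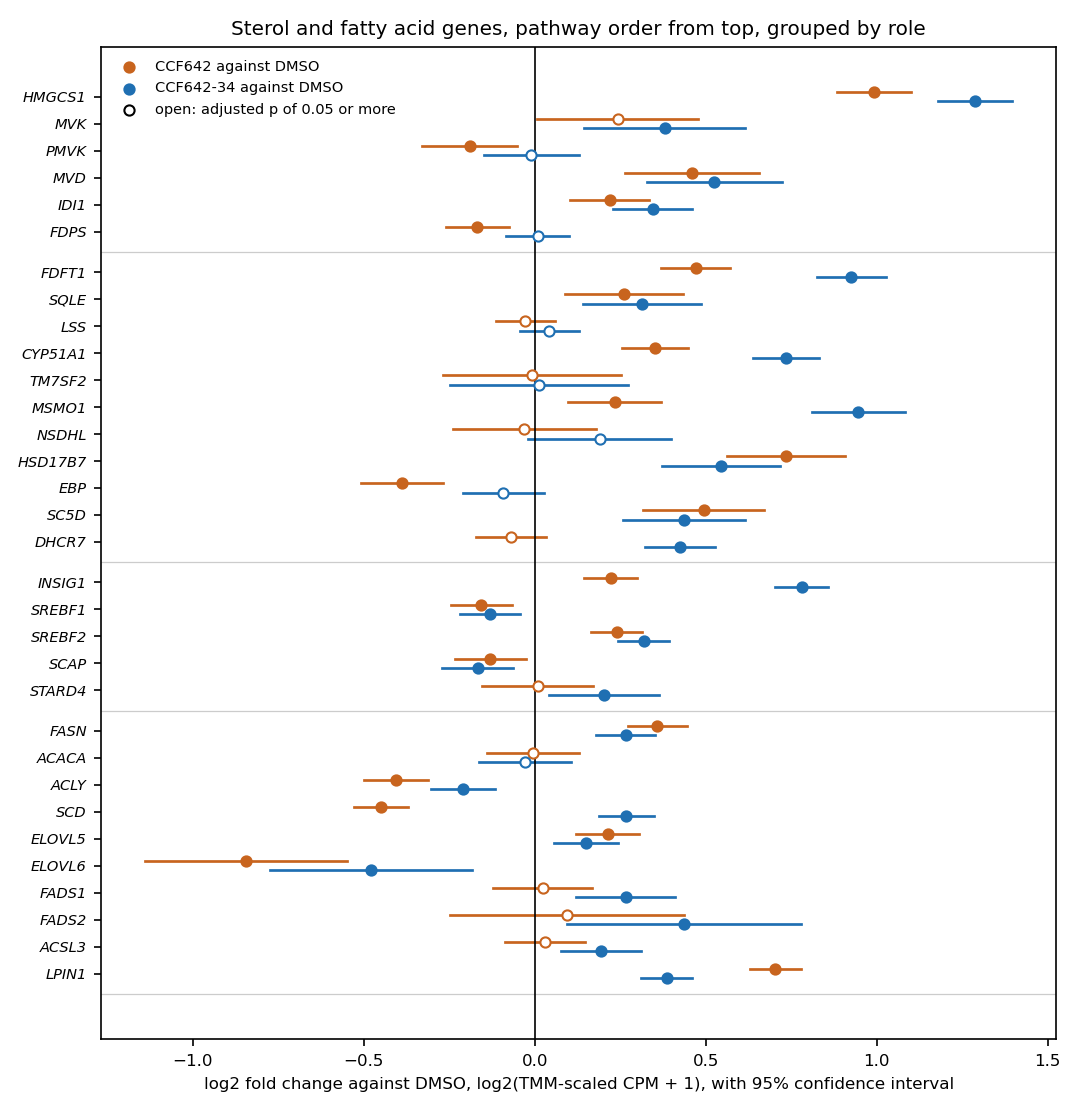
Log2 fold change against DMSO (horizontal axis) with 95% confidence intervals for the 32 genes, in pathway order and separated by role, for CCF642 (orange) and CCF642-34 (blue), with open points for genes not called. HMGCS1 lies farthest to the right, at 0.99 and 1.29, and SCD has its points on opposite sides of 0, at −0.45 and 0.27.

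Among the 10 genes of fatty acid synthesis and desaturation, 3 were called higher and 3 lower with CCF642, near the shares of all listed genes (31.8% and 31.3%). With CCF642-34, 7 were higher and 2 lower, beside 29.7% and 27.9% of all listed genes. The medians were 0.026 (−0.11 without TMM scaling) with CCF642 and 0.23 with CCF642-34. SCD, the desaturase that makes oleate from stearate, was at 495 and 489 CPM with DMSO, 319 and 337 CPM with CCF642, and 563 and 549 CPM with CCF642-34. The groups did not overlap, and the compounds lay on opposite sides of the vehicle. SCD fell by 0.45 on the log2 scale with CCF642 (SE 0.040, limma adjusted p = 6.72e-14) and rose by 0.27 with CCF642-34 (SE 0.040, limma adjusted p = 1.14e-07, but 0.18 and limma adjusted p = 0.000125 without TMM scaling). It was 1.64-fold higher with CCF642-34 than with CCF642 (0.72, SE 0.040, limma adjusted p = 5.56e-20), the largest direct difference of the 32 genes. SCD has 1 annotated pseudogene.

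ELOVL6, which elongates saturated and monounsaturated fatty acids and supplies stearate to SCD, was at 11.1 and 10.6 CPM with DMSO, 4.76 and 5.40 CPM with CCF642, and 5.90 and 8.35 CPM with CCF642-34. It was lower with both compounds, and the 2 CCF642-34 libraries were far apart. It fell by 0.85 on the log2 scale with CCF642 (SE 0.15, limma adjusted p = 2.38e-06) and by 0.48 with CCF642-34 (SE 0.15, limma adjusted p = 0.00477), and without CCF642-34 replicate 1 the latter was −0.26 (limma adjusted p = 0.215). The direct difference was 0.37 (limma adjusted p = 0.0491), and without CCF642-34 replicate 2 it was 0.15 (limma adjusted p = 0.574). The direct call was also lost without CCF642 replicate 1 (0.29) and without DMSO replicate 1 or 2 (0.37 in each). DESeq2's Wald test (0.43, DESeq2 adjusted p = 0.139) and the gene-wise linear model (adjusted p = 0.304) did not call it either. The same held for a pseudocount of 0.1, DESeq2 size factors and a fit of the 2 groups alone (limma adjusted p = 0.0509, 0.0532 and 0.0756).

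LPIN1, a phosphatidate phosphatase that makes diacylglycerol, was the only gene of the 32 called lower with CCF642-34 than with CCF642. It was at 505 and 494 CPM with DMSO, 751 and 732 CPM with CCF642, and 610 and 618 CPM with CCF642-34. It rose with both compounds, 1.63-fold with CCF642 (0.70, SE 0.037, limma adjusted p = 7.03e-22) and 1.31-fold with CCF642-34 (0.39, SE 0.037, limma adjusted p = 1.34e-12). The direct difference was −0.32 (SE 0.037, limma adjusted p = 2.18e-09).

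ACLY and FASN, at the start and the centre of fatty acid synthesis, went in opposite directions. ACLY, which makes cytosolic acetyl-CoA from citrate, was at 212 and 219 CPM with DMSO, 146 and 149 CPM with CCF642, and 176 and 173 CPM with CCF642-34. It fell by 0.41 on the log2 scale with CCF642 and by 0.21 with CCF642-34, and was higher with CCF642-34 than with CCF642 by 0.20 (limma adjusted p = 0.000795). FASN, fatty acid synthase, was at 286 and 295 CPM with DMSO, 330 and 350 CPM with CCF642, and 339 and 318 CPM with CCF642-34.

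FASN rose by 0.36 with CCF642 and 0.27 with CCF642-34 (0.22 and 0.18 without TMM scaling), and the direct difference was −0.092 (95% confidence interval −0.18 to −0.0056, limma adjusted p = 0.0945), which was called without CCF642 replicate 1 (−0.14, limma adjusted p = 0.0112). ACACA, acetyl-CoA carboxylase, lay between 49.3 and 57.8 CPM and was not called in any comparison. ELOVL5, which elongates polyunsaturated fatty acids, rose by 0.21 with CCF642 and 0.15 with CCF642-34. The CCF642-34 call was lost without DMSO replicate 2 (0.12, limma adjusted p = 0.116) or CCF642-34 replicate 2 (0.12, limma adjusted p = 0.0793), and neither was called without TMM scaling (0.079 and 0.061, limma adjusted p = 0.132 and 0.267).

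The desaturases FADS1 and FADS2 and the acyl-CoA synthetase ACSL3 were called higher with CCF642-34 (0.27, 0.44 and 0.19) and not with CCF642 (0.023, 0.093 and 0.029). FADS1 was at 41.2 and 43.8 CPM with DMSO, 39.5 and 39.2 CPM with CCF642, and 48.8 and 47.7 CPM with CCF642-34, and differed between the compounds by 0.24 (limma adjusted p = 0.00719), but not without CCF642-34 replicate 1 (0.22, limma adjusted p = 0.071). FADS2 was at 3.19 to 5.40 CPM, on 72 to 150 reads, and its CCF642-34 call was lost without TMM scaling (0.37, limma adjusted p = 0.0609), without CCF642-34 replicate 2 (0.34, limma adjusted p = 0.192) and without DMSO replicate 1 (0.42) or 2 (0.46), with limma adjusted p of 0.101 and 0.0712. With DESeq2's Wald test FADS2 was not called with CCF642-34 either (0.54, DESeq2 adjusted p = 0.0827). FADS1 and FADS2 share 490 exon bases on opposite strands, so their reads may not be fully separated.

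ACSL3 was at 78.8 and 80.1 CPM with DMSO, 71.5 and 76.3 CPM with CCF642, and 84.4 and 86.6 CPM with CCF642-34. Its CCF642-34 call was lost without DMSO replicate 1 (0.18, limma adjusted p = 0.0503) and without TMM scaling (0.10, limma adjusted p = 0.122). Its direct difference of 0.16 (limma adjusted p = 0.026) was lost without CCF642 replicate 1 (0.11), CCF642-34 replicate 1 (0.18) or CCF642-34 replicate 2 (0.15). It was also not called with DESeq2's Wald test (0.16, DESeq2 adjusted p = 0.0778).

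The direct comparison of the compounds called 15 genes, with log2 differences from −0.32 for LPIN1 to 0.72 for SCD. For the 17 genes not called, the 95% confidence intervals ran from −0.36 for HSD17B7 to 0.69 for FADS2 and had a median half-width of 0.16. The calls of SCD, MSMO1, INSIG1, DHCR7, CYP51A1 and LPIN1 were kept under all 17 alternative settings. Without TMM scaling, IDI1, LSS, NSDHL, SREBF2 and STARD4 were also called higher with CCF642-34 than with CCF642, by 0.17, 0.11, 0.26, 0.12 and 0.24. This made 19 higher and 1 lower, while the share of all listed genes called higher moved from 15.9% to 21.8%. The share called lower moved from 17.4% to 13.5%, and the median of all listed genes from 0.0093 to 0.051.

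**Figure D4:**
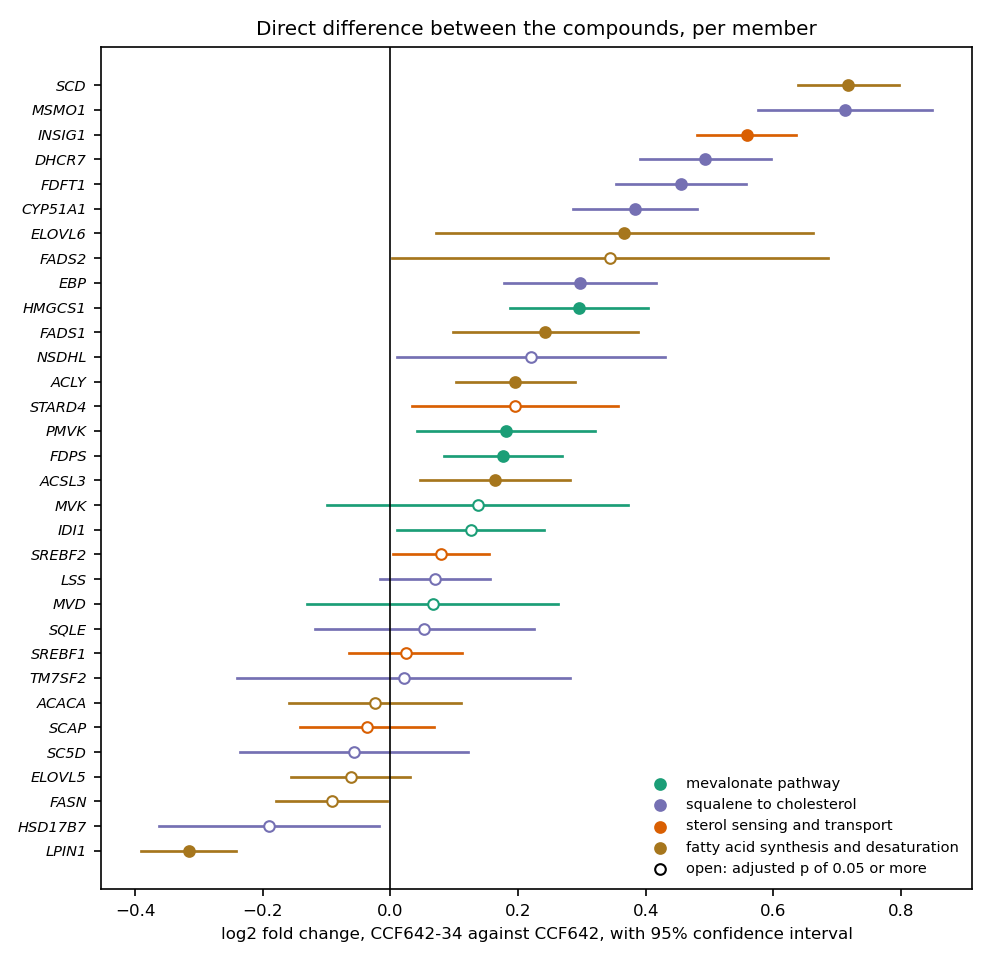
Log2 fold change of CCF642-34 against CCF642 (horizontal axis) with 95% confidence intervals for the 32 genes, ordered by size and coloured by role, with open points for the 17 genes not called. SCD and MSMO1 lie at the top at 0.72 and 0.71, INSIG1 follows at 0.56, and LPIN1 alone is called below 0, at −0.32.

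Levels were also compared between genes per kilobase of annotated exon. With DMSO, FDPS was highest at 133 CPM per kb, followed by INSIG1 at 122, SREBF2 at 94.7, SCD at 91.7 and LPIN1 at 82.0, and FADS2 was lowest at 0.729 CPM per kb. With CCF642-34 the mean of INSIG1 was the highest, at 197 CPM per kb, above FDPS at 125. With CCF642 INSIG1 was at 130 and LPIN1 at 122 CPM per kb, above FDPS at 107.

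Another 6 lists of related genes were counted in the same way, beside 31.8% higher and 31.3% lower with CCF642, 29.7% and 27.9% with CCF642-34, and 15.9% and 17.4% directly over all listed genes. Of 14 genes of SREBP processing and its cofactors, 6 were called higher (42.9%) and 5 lower (35.7%) with CCF642, against 5 higher (35.7%) and 4 lower (28.6%) with CCF642-34, and directly 3 (21.4%) were higher and 3 lower. These shares were near those of all genes. SEC24D, a coat protein of vesicles that leave the ER, was at 193 and 185 CPM with DMSO, 501 and 526 CPM with CCF642, and 499 and 515 CPM with CCF642-34, with log2 fold changes of 1.57 and 1.51. NFYB, a subunit of the CCAAT-binding factor NF-Y, was at 33.0 and 30.5 CPM with DMSO, 15.7 and 16.9 CPM with CCF642, and 16.7 CPM in both CCF642-34 libraries, and fell by 0.79 and 0.80 on the log2 scale. Neither was called between the compounds (limma adjusted p = 0.257 and 0.963).

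Of 12 listed genes of isoprenoid branches, 3 were called higher (25.0%) and 5 lower (41.7%) with CCF642, against 5 higher (41.7%) and 4 lower (33.3%) with CCF642-34, and directly 3 were higher (25.0%) and 1 lower (8.33%). DOLK, dolichol kinase, fell by 0.98 and 0.62 on the log2 scale. Of 17 listed genes of sterol trafficking, storage and efflux, 6 were called higher (35.3%) and 5 lower (29.4%) with CCF642, against 6 higher (35.3%) and 4 lower (23.5%) with CCF642-34, near the shares of all genes, and directly 3 were higher (17.6%) and 5 lower (29.4%). OSBP, an oxysterol binding protein that carries cholesterol from the ER to the Golgi, was at 141 and 131 CPM with DMSO, 260 and 255 CPM with CCF642, and 242 and 237 CPM with CCF642-34, and rose by 1.05 and 0.90, and was lower with CCF642-34 than with CCF642 (−0.15, limma adjusted p = 0.00969). MYLIP, a ubiquitin ligase for lipoprotein receptors, fell by 0.59 and 0.76.

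Of 19 other genes of fatty acid synthesis and elongation, 2 were called higher (10.5%) and 10 lower (52.6%) with CCF642, against 5 higher (26.3%) and 5 lower (26.3%) with CCF642-34, and directly 7 were higher (36.8%) and 1 lower (5.26%). MID1IP1, which stimulates acetyl-CoA carboxylase, was at 49.8 and 45.4 CPM with DMSO, 91.3 and 93.5 CPM with CCF642, and 99.7 and 99.0 CPM with CCF642-34, and rose by 1.08 and 1.14. HACD3, a dehydratase of fatty acid elongation, fell by 0.93 and 0.72.

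Of 16 listed genes of fatty acid oxidation, 3 were called higher (18.8%) and 10 lower (62.5%) with CCF642, against 1 higher (6.25%) and 8 lower of the 16 with CCF642-34, and directly 4 were higher (25.0%) and 2 lower (12.5%). SLC25A20, the carnitine carrier of the mitochondrial membrane, was at 124 and 131 CPM with DMSO, 61.7 and 56.0 CPM with CCF642, and 86.9 and 84.3 CPM with CCF642-34. It fell by 0.97 on the log2 scale with CCF642 and by 0.48 with CCF642-34, and differed between the compounds by 0.49 (limma adjusted p = 3.03e-09). CPT2, which re-forms acyl-CoA inside mitochondria, fell by 0.60 and 0.39.

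Of 16 listed genes of glycerolipid and phospholipid synthesis, 3 were called higher (18.8%) and 7 lower (43.8%) with CCF642, against 3 higher (18.8%) and 6 lower (37.5%) with CCF642-34, and directly 4 were higher (25.0%) and 1 lower (6.25%). AGPAT5, an acyltransferase of phosphatidate synthesis, was at 106 and 101 CPM with DMSO, 39.6 and 41.2 CPM with CCF642, and 51.8 and 50.7 CPM with CCF642-34, and fell by 1.20 and 0.91 on the log2 scale. PCYT1A, the regulated enzyme of phosphatidylcholine synthesis, rose by 0.76 and 0.82.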

How the data were processed

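The authors deposited CPM values, reads counted per gene scaled to the library total, for 11048 gene symbols in each of 6 libraries, and this unit was read from the values. The listed genes hold 99.9% of each total, and every value is a whole multiple of 1 read within 0.01 read, so reads could be recovered. The submitters' processing notes name STAR, edgeR 3.24.3, limma 3.38.3 and hg19, with no roles, and the counting tool is not given in the sources used here. Intervals cover the spread between libraries only.

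CPM were scaled by TMM (edgeR 4.0.16), a pseudocount of 1 was added, and log2 values of all 6 libraries entered 1 limma fit (3.58.1, R 4.3.3) with no block, with 3 residual degrees of freedom and a prior of 42.9. All tests were two-sided, and the script was tested on simulated data. The 32 genes, the related lists and the tests were chosen with earlier results of these data known.

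Values in every library were given for genes at least 1.5-fold apart with an adjusted p under 0.05 in any of the 3 comparisons, INSIG1, SREBF1, SREBF2, the 3 largest direct differences and, beyond the rule and chosen after their values were seen, other genes of the 32. From each related list at most 2 genes with the largest change were named, and 1 such gene is not reported here. The alternatives were pseudocounts of 0.1, 0.5 and 4, a mean CPM of at least 5, DESeq2 (1.42.0) size factors, library size alone, edgeR's quasi-likelihood test and DESeq2's Wald test on recovered reads, a replicate block, a linear model for each gene alone, fits restricted to 2 groups and fits without each library. Exon lengths and overlaps came from GENCODE release 29 (GRCh38). A series table with the same values was not used.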

Additional observations from a re-analysis of the deposited data

How the results depend on the processing

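No called gene of the 32 changed direction under the 17 alternatives. Calls kept under all of them were 14 of 22 with CCF642, 15 of 25 with CCF642-34 and 6 of 15 in the direct comparison, and 10 of 15 direct calls were kept when the gene-wise linear model was set aside. That model, which shares no variance between genes, called 12 higher and 5 lower with CCF642, 14 and 2 with CCF642-34, and 5 and 1 directly. Of all listed genes it called 23.8% higher and 21.7% lower with CCF642, 19.7% and 17.5% with CCF642-34, and 2.19% and 4.50% directly. DESeq2's Wald test called 14 and 6, 19 and 4, and 11 and 1, and edgeR's quasi-likelihood test 14 and 8, 21 and 4, and 15 and 1. In the same order, DESeq2 called 28.9% and 27.3%, 26.2% and 24.9%, and 10.8% and 14.9% of all listed genes. For edgeR these shares were 31.7% and 31.1%, 30.1% and 28.2%, and 16.0% and 17.7%. Over fits without 1 library, 12 to 15 genes were higher and 6 to 8 lower with CCF642, 18 to 21 and 3 to 4 with CCF642-34, and 10 to 14 and 1 to 3 directly, with 3 lower, LPIN1, FASN and HSD17B7, without CCF642 replicate 1. Same-numbered replicates did not deviate together (correlations −0.0089, −0.056 and 0.047 across genes). With 2 libraries a group this cannot tell whether same-numbered libraries were prepared together. With the replicate block the counts were 14 and 8, 21 and 4, and 14 and 1. The shares of all listed genes were then 32.0% and 31.5%, 29.9% and 28.2%, and 16.5% and 17.9%. Library size alone gave 2528 higher and 4738 lower over all genes with CCF642, against 3517 and 3457. It gave 2497 and 3972 with CCF642-34 against 3285 and 3077, and 2406 and 1488 directly against 1760 and 1925. The medians by role with CCF642 became 0.10 for the mevalonate pathway, 0.10 from squalene to cholesterol, −0.12 for sterol sensing and −0.11 for fatty acid genes, while all 4 stayed above 0 with CCF642-34 and directly. Genes not called changed sign with library size alone for CCF642 at ACSL3 (−0.10), FADS1 (−0.11), FADS2 (−0.012) and STARD4 (−0.12), for CCF642-34 at FDPS (−0.081), LSS (−0.048) and TM7SF2 (−0.070), and directly at ACACA (0.019) and SCAP (0.0067).

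Fits without 1 library also turned the sign of genes not called. With CCF642 the log2 fold change ranged from −0.022 to 0.080 for ACSL3, −0.021 to 0.067 for FADS1, −0.038 to 0.22 for FADS2, −0.023 to 0.039 for STARD4, −0.21 to 0.15 for NSDHL, −0.078 to 0.068 for ACACA and −0.084 to 0.067 for TM7SF2. With CCF642-34 it ranged from −0.047 to 0.065 for FDPS, −0.13 to 0.16 for TM7SF2 and −0.11 to 0.088 for PMVK. Directly it ranged from −0.097 to 0.049 for ACACA, −0.051 to 0.33 for MVK, −0.046 to 0.15 for SQLE, −0.023 to 0.070 for SREBF1, −0.13 to 0.17 for TM7SF2, −0.0089 to 0.14 for MVD and −0.14 to 0.025 for SC5D. The cause was not tested. With 2 libraries a group, the calls rest on variance shared across genes, and ELOVL6 and FADS2, with the fewest reads, had the widest intervals.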
